A study of Homo sapiens with 6 samples.

Results

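NT5E and 9 further genes of extracellular purine handling were followed in RNA-seq of cells with reduced ARMC5. The 10 genes are ENTPD1, ENTPD2 and ENPP1, NT5E, ADORA1, ADORA2B, P2RY2, SLC29A1, ADA and ADK, chosen by name for their roles, out of 35810 genes with at least 1 transcript in the deposited quantifications. Earlier results of these data were known at that choice, and the study itself labels NT5E. A count of calls among the members is therefore a description. Both groups were SPT5-AID cells, made from the colorectal adenocarcinoma line DLD-1 with the auxin receptor AtAFB2, so that the auxin-inducible degron on SPT5 is common to them. GIPZ lentivirus delivered either shRNA against ARMC5 (shARMC5, 3 libraries) or nontargeting shRNA (shNT, 3 libraries), and infected cells were selected with puromycin. The labels of the 6 libraries name no auxin, and which of the ARMC5 constructs was used is not given in the sources used here. Differences are shARMC5 against shNT throughout, which asks how expression differs when ARMC5 is reduced.

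Cells release ATP, and nucleotidases on the cell surface take it apart step by step. ENTPD1 (CD39) and ENTPD2 remove terminal phosphates from ATP, ENPP1 cuts ATP to AMP and pyrophosphate, and NT5E (CD73) removes the last phosphate of AMP to give adenosine. ATP itself is sensed by P2 receptors such as P2RY2, adenosine by ADORA1 and ADORA2B, and adenosine is then carried into the cell by SLC29A1 (ENT1), phosphorylated to AMP by ADK or deaminated to inosine by ADA. NT5E is an enzyme anchored by a lipid to the outer face of the cell membrane. It is found on many carcinoma cells, and is studied as a source of adenosine that restrains immune cells.

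NT5E, which lies on the plus strand of hg38 at chr6:85449584-85495791 (ENSG00000135318), is annotated with 9 exons in its main transcript. Exon 7 is shown because the second annotated transcript with reads over most of the gene, NT5E-203, lacks it. The exon is coding and has 150 bases, the length of 50 codons, so that leaving it out keeps the reading frame. It lies at chr6:85490508-85490657 on the plus strand of hg38 and reads as follows.

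NT5E exon 7: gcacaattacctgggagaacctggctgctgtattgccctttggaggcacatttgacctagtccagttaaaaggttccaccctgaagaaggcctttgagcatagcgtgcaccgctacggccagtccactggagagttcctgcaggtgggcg

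The promoters of NT5E and ADORA2B are shown because these were the members called higher in shARMC5 cells. Each window holds 300 bases around the start of the gene in RefSeq (GRCh38.p14), most of them upstream, and capitals mark TGACG, the core letters of the cAMP response element. The NT5E window is chr6:85449833-85450132 and the ADORA2B window chr17:15944880-15945179, both on the plus strand. RefSeq places the start of NT5E downstream of the start in the annotation used for the counts, so its window lies inside the gene's interval given above.

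NT5E: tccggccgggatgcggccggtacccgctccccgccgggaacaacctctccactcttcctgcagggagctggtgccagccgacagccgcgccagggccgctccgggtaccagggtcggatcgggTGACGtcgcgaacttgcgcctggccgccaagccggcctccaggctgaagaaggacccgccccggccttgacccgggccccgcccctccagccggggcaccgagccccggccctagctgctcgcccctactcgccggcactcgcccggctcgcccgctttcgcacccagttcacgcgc

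ADORA2B: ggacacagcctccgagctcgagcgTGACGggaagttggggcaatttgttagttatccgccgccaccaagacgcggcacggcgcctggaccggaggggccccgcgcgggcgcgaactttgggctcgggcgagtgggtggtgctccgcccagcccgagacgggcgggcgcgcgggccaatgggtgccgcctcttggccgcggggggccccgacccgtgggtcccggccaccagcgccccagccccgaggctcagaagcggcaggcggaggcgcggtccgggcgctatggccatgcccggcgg

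Both windows are rich in G and C, at 75% for NT5E and 75.7% for ADORA2B. The letters of 4 motifs were searched on both strands: GGAATG of TEAD factors, TGANTCA of AP-1, ACGTG of the hypoxia response element, and TGACG, where ACGTG and TGACG can share letters. TGACG began at -127 from the start of NT5E and at -226 from that of ADORA2B, and it was found in 24.6% of the 35116 RefSeq promoters of the same length. Neither window holds GGAATG (14% of promoters), TGANTCA (7.71%) or ACGTG (21.4%). Promoters were found for 9 of the 10 members, with 15 windows in all, of which 5 hold TGACG. That motif was marked after the sequences had been seen, and a match is a description of letters, not a bound site.

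Each library had from 26201112 to 40866478 reads on transcripts. Levels that compare genes are TPM, a length-adjusted share of a library, and the groups are compared in CPM, read counts on genes scaled for depth with TMM factors, with TPM beside it where named. A gene is called when the adjusted p of edgeR's quasi-likelihood test over 13737 tested genes is under 0.1, and 610 genes were called higher and 454 lower (458 and 495 with library size only). ARMC5, the targeted gene (chr16:31458080-31467166), was at 10.8, 12 and 12.9 CPM in shARMC5 replicates 1 to 3 and at 23.0, 25.9 and 26.7 CPM in shNT replicates 1 to 3. Its log2 fold change was -1.09 (SE 0.08, adjusted p = 5.32e-07, edgeR). The labels number the replicates without naming separate cultures, so p-values measure the spread between these libraries. All 7 colorectal epithelium markers examined were above 1 TPM, with summed levels of 7807 to 8103 TPM in shARMC5 and 6877 to 7358 TPM in shNT libraries. None of the 3 leukocyte, 5 fibroblast and 3 endothelium markers reported here reached 1 TPM in any library, and CD3E, COL3A1 and CDH5 had no reads. Among the epithelial markers VIL1 was lower in shARMC5 cells (log2 fold change -1.30, SE 0.11, adjusted p = 2.77e-06), CDH17 was lower (-0.27, adjusted p = 0.00154), and KRT8 and KRT18 were higher (0.18 and 0.25, adjusted p = 0.000412 and 1.2e-05, edgeR). Whether these shifts have a part in the results for the purine genes was not tested, and in bulk RNA fewer cells of a kind and less RNA per cell cannot be told apart.

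The 10 genes spanned levels from near 0 to over 100 TPM. In shNT cells the mean levels ran from NT5E at 119 TPM through ADK at 72.2, SLC29A1 at 48.2, ADORA2B at 24.3, ADA at 3.75, ENPP1 at 2.42, ENTPD2 at 1.83, P2RY2 at 1.17 and ENTPD1 at 0.539 to ADORA1 at 0.114 TPM. Neighbours in this order did not overlap in range over the 3 shNT libraries, except ENTPD2 with P2RY2 and P2RY2 with ENTPD1. NT5E lay above 90.3% of the tested genes by mean shNT TPM, and ADK above 83.4%. The members thus fell into 4 genes above 20 TPM, which are NT5E, ADK, SLC29A1 and ADORA2B, and 6 genes below 5 TPM, among them all 3 enzymes that act on ATP.

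**Figure D1:**
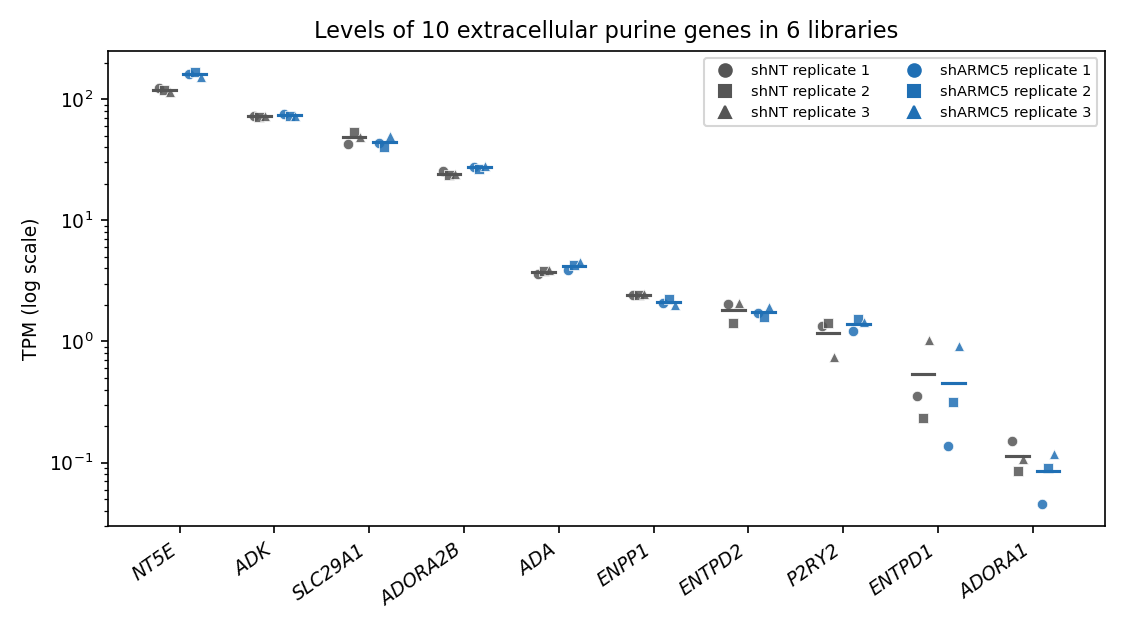
Levels of the 10 purine genes. Each point is 1 library (grey for shNT, blue for shARMC5, with a marker shape per replicate number), horizontal lines are group means (n = 3), and the vertical axis is TPM on a log scale. NT5E has the highest level, and its shARMC5 libraries (153 to 166 TPM) lie above its shNT libraries (115 to 123 TPM), whereas all 6 points of ADK lie between 71.5 and 75.2 TPM.

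Of the 10 members 9 passed the filter of at least 10 reads in at least 3 libraries. NT5E and ADORA2B were called higher in shARMC5 cells, none was called lower and 7 were not called, where 4.44% of all tested genes were called higher, 3.3% lower and 7.75% either way. Without a call rule, the log2 fold changes of 5 members were positive and of 4 negative, with a median of 0.04, beside a median of 0.00 over all tested genes. CPM of the groups did not overlap for the 2 called members, and over all tested genes they did not overlap for 23.4%, with every shARMC5 library above every shNT library for 12.5%. At an unadjusted p under 0.05 edgeR also gave 2 members higher and 0 lower, and the share over all genes at that rule was not taken. DESeq2 called 1 member higher, which was NT5E, and 0 lower, where over all genes it called 503 higher and 374 lower.

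The 3 enzymes that take ATP to AMP were present at low levels and were not called. ENTPD1 (ENSG00000138185, chr10:95711779-95877266, plus strand) had 28, 21 and 25 reads in shARMC5 and 46, 24 and 40 reads in shNT replicates 1 to 3. The groups overlapped, since shNT replicate 2 lay among the shARMC5 libraries. With a log2 fold change of -0.56 and an SE of 0.35 ENTPD1 was not called (adjusted p = 0.436, edgeR), so at this depth a change of that size was within the error. Its value was -0.31 without shARMC5 replicate 2, -0.82 without shNT replicate 2, and -0.34 and -0.27 with a transcript length offset in edgeR and DESeq2. ENTPD1-201, a transcript of 12493 bases, held 10 to 40 of these reads, and TPM of the gene swung between 0.137 and 1.03 because a few reads on the short ENTPD1-204 (439 bases) weigh much in a value per length. ENTPD1-204 had 4 reads and 0.717 TPM in shARMC5 replicate 3, and 5 reads and 0.885 TPM in shNT replicate 3.

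ENTPD2 (ENSG00000054179, chr9:137048107-137054061, minus strand) prefers ATP over ADP. It was at 2.11, 2.10 and 2.42 CPM in shARMC5 and at 2.29, 1.88 and 2.89 CPM in shNT replicates 1 to 3, with 61 to 83 reads per library. The shNT range enclosed the shARMC5 range. ENTPD2 had a log2 fold change of -0.09 (SE 0.21, adjusted p = 0.879, edgeR), and of 0.08 without shNT replicate 3.

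ENPP1 (ENSG00000197594, chr6:131808016-131895155, plus strand) also limits mineral deposition through the pyrophosphate it makes. Its CPM were 5.81, 5.73 and 6.23 in shARMC5 and 5.72, 5.92 and 6.74 in shNT replicates 1 to 3, with 157 to 226 reads. These overlapped, and the log2 fold change was -0.05 (SE 0.12, adjusted p = 0.885, edgeR). With a transcript length offset it was -0.18 in both edgeR (SE 0.13, adjusted p = 0.616) and DESeq2 (adjusted p = 0.763). TPM of the same libraries did not overlap, at 2.09, 2.24 and 1.99 in shARMC5 and 2.40, 2.41 and 2.46 in shNT. The ratio of the group means was 0.870 by TPM and 0.966 by CPM.

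TPM weighs each transcript by its length, so it depends on how salmon divided the reads of ENPP1 among its transcripts. The full-length ENPP1-204 (7438 bases) received 60.1, 49.5 and 63.2% of the gene's reads in shARMC5 and 46.4, 44.7 and 46.9% in shNT libraries. ENPP1-203, a shorter transcript of 3107 bases annotated for nonsense-mediated decay, received 25.3, 33.7 and 29.2% in shARMC5 and 36.2, 44.8 and 45.5% in shNT libraries. The groups did not overlap in these complementary shares, each of which rests on 44 to 112 reads (exact permutation p = 0.1, two-sided, the smallest that 3 libraries against 3 allow). Shares did not overlap for 3 of 25 tested transcripts of the members, and for 10.1% of all 46237 tested transcripts of genes with more than 1, so the count among the members is near the background. On their own neither was called, with a log2 fold change of 0.27 (SE 0.23) for ENPP1-204 and -0.58 (SE 0.29) for ENPP1-203, both with adjusted p = 1 from edgeR over transcripts. Of 12 annotated ENPP1 transcripts 8 were in the files.

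NT5E, the enzyme that makes adenosine from AMP, was the member with the largest called difference. It had 9896, 13301 and 8205 reads in shARMC5 and 7736, 7896 and 6554 reads in shNT replicates 1 to 3. After normalization these were 327, 337 and 325 CPM in shARMC5 and 237, 244 and 234 CPM in shNT libraries, or 330 ± 6.56 against 238 ± 4.97 CPM (SD, n = 3). Every shARMC5 library thus lay well above every shNT library, and the spread within a group was small beside the gap. The log2 fold change was 0.47 (SE 0.03), a 1.39-fold higher level, with an adjusted p of 2.8e-08 from edgeR, and by p NT5E stood 4th among the tested genes. The exact permutation test of the CPM gave p = 0.1, which is the smallest it can give. NT5E was called in all 16 alternative analyses of single genes, with log2 fold changes between 0.45 and 0.49 and adjusted p up to 0.000917. It would not pass a minimum absolute log2 fold change of 1, which was applied to the counts over all genes. In TPM the difference was alike, at 160 ± 6.63 against 119 ± 4.31 TPM (SD, n = 3).

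Nearly all NT5E reads belonged to transcripts that encode the whole protein or the form without exon 7. NT5E-201 (3562 bases, 9 exons, 1722 coding bases) held 88.7, 88.5 and 89.2% of the gene's reads in shARMC5 and 87.8, 88.8 and 87.8% in shNT replicates 1 to 3. NT5E-203 (3918 bases, 8 exons, 1572 coding bases), which lacks the exon printed above, held 8.58, 8.39 and 8.47% in shARMC5 and 8.91, 8.48 and 8.71% in shNT libraries. The shares of the groups overlapped for both transcripts (exact permutation p = 0.3 for NT5E-201 and 0.2 for NT5E-203, two-sided). Fitted on their own, NT5E-201 had a log2 fold change of 0.48 (SE 0.03) and NT5E-203 of 0.44 (SE 0.05), both near that of the gene.

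Neither transcript was called, with adjusted p of 0.102 for NT5E-201 and 0.189 for NT5E-203 from edgeR over 49809 transcripts, of which 0.00803% were called. The common biological coefficient of variation was 0.657 over all tested transcripts against 0.0643 over genes, and it is not a value for these transcripts. NT5E-201 was at 295 ± 6.81 CPM in shARMC5 and 211 ± 7.13 CPM in shNT libraries (SD, n = 3). NT5E-203 was at 28.1 ± 0.561 and 20.8 ± 0.382 CPM. Why they were not called was not tested. NT5E-204 (689 bases) had a log2 fold change of 0.26 (SE 0.14) and NT5E-202 (974 bases) of 0.44 (SE 0.59), both with adjusted p = 1. NT5E-202 rested on 21 to 116 reads, and its value was -0.20 without shARMC5 replicate 2. NT5E-205, with 3 to 17 reads, was not tested. Over all members 57 transcripts had reads and 28 were tested, and edgeR called 0, with 3 at an unadjusted p under 0.05 (NT5E-201, NT5E-203 and ADORA2B-201). The share of all transcripts at that unadjusted rule was not taken.

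**Figure D2:**
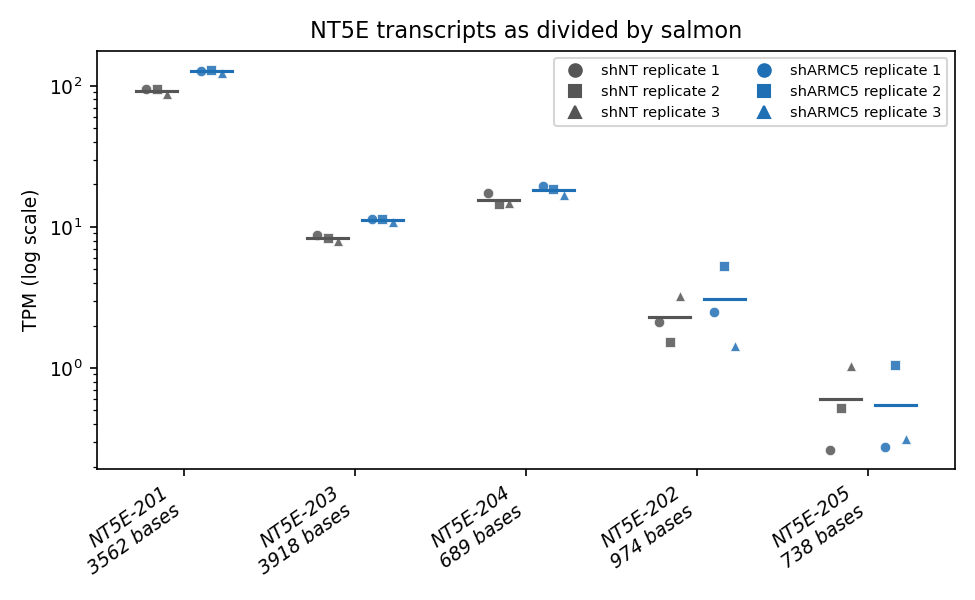
The 5 annotated NT5E transcripts. Points are libraries, horizontal lines are group means (n = 3), and the vertical axis is TPM on a log scale, with the length of each transcript under its name. NT5E-201 (124 to 130 TPM in shARMC5, 87.5 to 94.5 TPM in shNT) and NT5E-203 (10.8 to 11.4 and 8.01 to 8.83 TPM) keep the groups apart, and the 2 rarest transcripts scatter within each group.

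NT5E made up 75.3 to 81.2% of the summed TPM of 6 enzymes that can release adenosine from AMP outside the cell. The shares were 79.6, 81.2 and 75.3% in shARMC5 and 76.6, 77.5 and 76.9% in shNT replicates 1 to 3, so they overlapped. The next in level was the placental alkaline phosphatase gene ALPP, at 30.9 to 46.7 TPM. ALPP was at 55.7, 49.9 and 65.9 CPM in shARMC5 and at 48.3, 47.8 and 49.0 CPM in shNT libraries, and it was not called by edgeR (log2 fold change 0.23, SE 0.10, adjusted p = 0.312) but was by DESeq2 without a length offset. Its close paralogue ALPG had 7 to 19 reads, and reads that fit both genes were divided by salmon.

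The genes on either side of NT5E did not share its difference as a call. SNX14, a sorting nexin gene on the opposite strand whose 3′ end lies 8985 bases beyond NT5E, had 1879 to 3107 reads and a log2 fold change of -0.11 (SE 0.04, adjusted p = 0.125, edgeR). TBX18, a T-box factor gene 684986 bases away on the other side, had no reads in any library.

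The adenosine receptors were represented by ADORA2B. ADORA1 (ENSG00000163485, chr1:203090654-203167405, plus strand), the inhibitory receptor of high affinity, had 3, 7 and 6 reads in shARMC5 and 7, 3 and 6 reads in shNT replicates 1 to 3. It fell under the filter, and a difference in it was not detectable at this depth. ADORA3 had no reads, and ADORA2A had 1 to 7. ADORA2B thus took 97.7 to 99.3% of the summed TPM of the 4 adenosine receptor genes.

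ADORA2B (ENSG00000170425, chr17:15945130-15975746, plus strand) encodes the A2B receptor of low affinity, which raises cAMP. It was at 29.6, 28.2 and 30.8 CPM in shARMC5 and at 25.8, 25.3 and 26.2 CPM in shNT replicates 1 to 3, with 733 to 1111 reads. The groups did not overlap, with means of 29.5 ± 1.32 and 25.7 ± 0.452 CPM (SD, n = 3; exact permutation p = 0.1, two-sided). The log2 fold change was 0.20 (SE 0.06), a 1.15-fold higher level, with an adjusted p of 0.063 from edgeR, so ADORA2B lay just inside the threshold and ranked 817th by p. It was called in 7 of the 16 alternative analyses, and DESeq2 gave an adjusted p of 0.145. Leaving out a single library ended the call for 5 of the 6 libraries, and only without shARMC5 replicate 2 did the call remain (log2 fold change 0.23, adjusted p = 0.0672). Over the other 5 the adjusted p lay between 0.124 and 0.198, the highest without shARMC5 replicate 3. The direction was the same in all of them. Transcript ADORA2B-201 held 97.7 to 99.2% of the gene's reads and had a log2 fold change of 0.21 (SE 0.06, adjusted p = 0.628, edgeR over transcripts).

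**Figure D3:**
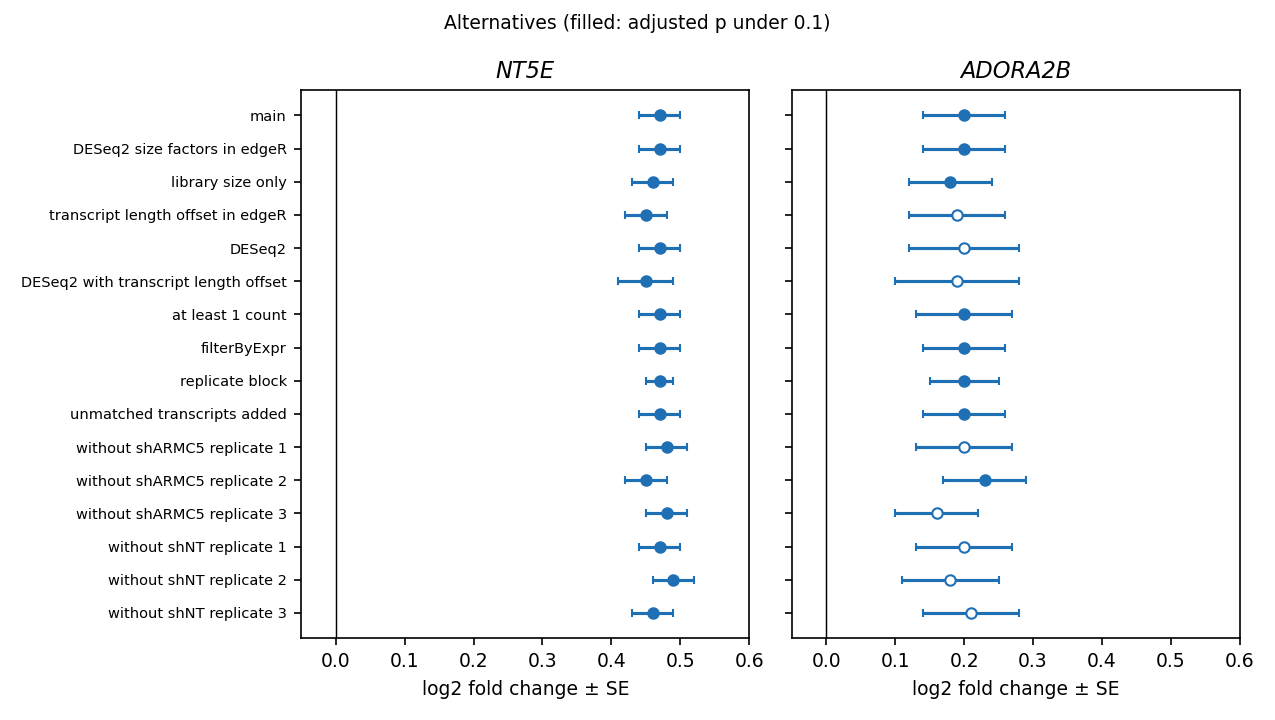
NT5E and ADORA2B under 15 alternative fits. The horizontal axis is the log2 fold change with its standard error, each row is 1 way to fit the 6 libraries or a subset of them, and filled points have an adjusted p under 0.1. All NT5E points are filled and lie between 0.45 and 0.49, whereas ADORA2B lies between 0.16 and 0.23 with 8 of the alternatives open.

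P2RY2 (ENSG00000175591, chr11:73218281-73242427, plus strand), a receptor for ATP and UTP that signals through calcium, was at 1.75, 2.18 and 2.14 CPM in shARMC5 and at 1.84, 2.10 and 1.21 CPM in shNT replicates 1 to 3. It had 34 to 86 reads, the fewest in shNT replicate 3, and the groups overlapped. The log2 fold change was 0.23 (SE 0.24, adjusted p = 0.681, edgeR), and over all alternatives it lay between 0.04 and 0.40. P2RY2 was 4.1 to 8.93% of the summed TPM of 8 P2Y receptor genes, in which P2RY11 (10.2 to 14.9 TPM) and P2RY1 (3.11 to 3.91 TPM) stood higher.

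SLC29A1 (ENSG00000112759, chr6:44219553-44234142, plus strand), which carries adenosine across the plasma membrane in either direction, showed the widest spread among the well-covered members. It was at 56.8, 52.1 and 61.7 CPM in shARMC5 and at 49.6, 67.1 and 62.6 CPM in shNT replicates 1 to 3, with 1556 to 2174 reads. The shNT libraries held both the lowest and the highest value. The log2 fold change was -0.07 (SE 0.14, adjusted p = 0.855, edgeR), and it was 0.02 without shNT replicate 2, the highest library, and -0.19 without shNT replicate 1, the lowest (SE 0.07, adjusted p = 0.225). SLC29A1 made up 53.1 to 62.1% of the summed TPM of 7 nucleoside transporter genes, followed by SLC29A2 at 26.3 to 30.7 TPM.

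The reads of SLC29A1 were divided among 19 transcripts. SLC29A1-206 held 48.0 to 58.7% of them and ENST00000393844 15.0 to 24.9%. Another, ENST00000652680 (1998 bases), had 58, 76 and 47 reads in shARMC5 and 31, 0 and 0 reads in shNT replicates 1 to 3. Its groups did not overlap, as was the case in CPM for 12.7% of all tested transcripts, and with an SE of 1.74 the log2 fold change of 2.57 was not called (adjusted p = 1, edgeR over transcripts).

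ADA (ENSG00000196839, chr20:44584896-44652252, minus strand), which turns adenosine into inosine and whose loss causes an immunodeficiency, was at 3.60, 3.75 and 3.97 CPM in shARMC5 and at 3.33, 3.73 and 2.85 CPM in shNT replicates 1 to 3. It had 80 to 148 reads. The groups overlapped by a narrow margin, since shNT replicate 2 exceeded shARMC5 replicate 1. ADA had a log2 fold change of 0.19 (SE 0.16, adjusted p = 0.607, edgeR), and of 0.09 without shNT replicate 3. Of 61 annotated ADA transcripts 9 were in the files. PKIG, a protein kinase A inhibitor gene on the opposite strand, overlaps ADA, had 129 to 221 reads and a log2 fold change of 0.07 (adjusted p = 0.856), and reads from overlapping genes cannot be told apart by strand with this library kit.

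ADK (ENSG00000156110, chr10:74151202-74709963, plus strand), the kinase that returns adenosine to AMP inside the cell, had almost the same level in all 6 libraries. It was at 65.9, 67.5 and 66.4 CPM in shARMC5 and at 64.2, 64.1 and 66.6 CPM in shNT replicates 1 to 3. The means were 66.6 ± 0.79 and 65.0 ± 1.38 CPM (SD, n = 3), and shNT replicate 3 lay within the shARMC5 range. ADK differed by 0.04 on the log2 scale (SE 0.04, adjusted p = 0.67, edgeR). The alternatives gave values between 0.02 and 0.05. ADK-202 held 47.7 to 56.9% and ADK-201 37.7 to 43.3% of the reads, and these ranges came from both groups.

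A list of 61 genes of purine release, breakdown, sensing, transport and salvage put the members beside the rest of the pathway. Of these 39 passed the filter, 4 were called higher, 0 lower and 35 were not called (4.44% higher and 3.3% lower over all tested genes), and the median log2 fold change was 0.04. CPM of the groups did not overlap for 7 of the 39, beside 23.4% of all tested genes. Without the members 2 of 30 tested genes were called higher. At an unadjusted p under 0.05 edgeR gave the same 4 genes higher and 1 gene lower, and the share over all genes at that rule was not taken. The lower gene was the P2X channel gene P2RX7, which rested on 2 to 23 reads (log2 fold change -1.36, SE 0.60, adjusted p = 0.239). DESeq2 called 4 genes of the list higher and 0 lower, where over all genes it called 503 higher and 374 lower. Its 4 were NT5E, AHCY, ALPP and NT5C3A, so that NT5E and AHCY were called by both tools.

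The further genes called higher by edgeR were ENTPD3 and AHCY. ENTPD3 (chr3:40387184-40428744), a surface nucleotidase that acts on ATP and ADP, was at 19.8, 17.9 and 18.9 CPM in shARMC5 and at 16.5, 16.5 and 15.6 CPM in shNT replicates 1 to 3. The groups did not overlap, and the log2 fold change was 0.22 (SE 0.07, adjusted p = 0.0862, edgeR). It was called in 5 of 16 alternatives, and in none of the 6 that left out a library (adjusted p from 0.109 to 0.248). ENTPD3 made up 69.4 to 79.7% of the summed TPM of the 4 ENTPD genes of the cell surface, above ENTPD1 and ENTPD2.

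AHCY (chr20:34280268-34311802, minus strand), which splits S-adenosylhomocysteine into adenosine and homocysteine inside the cell, was at 323, 312 and 320 CPM in shARMC5 and at 287, 299 and 285 CPM in shNT replicates 1 to 3. Every shARMC5 library lay above every shNT library. The log2 fold change was small, at 0.13 (SE 0.03, adjusted p = 0.00883, edgeR), and AHCY was called in 15 of 16 alternatives, the exception being the length offset in edgeR (adjusted p = 0.135).

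By role, 1 of 5 tested genes that take ATP and ADP to AMP was called higher, 1 of 4 that take AMP to adenosine, the single tested adenosine receptor gene, and 1 of 11 genes of adenosine and purine salvage or breakdown. None of 2 genes of ATP release, 3 P2Y receptor genes, 3 P2X channel genes, 5 nucleoside transporter genes and 5 intracellular nucleotidase genes was called. Over all tested genes 4.44% were called higher and 3.3% lower. Each role holds few tested genes, and whether any role differs from that share was not tested. The most abundant genes of these roles were PANX1 (21.1 to 26.3 TPM), P2RY11, P2RX4 (34.3 to 37.2 TPM), SLC29A1 and NT5C (56.3 to 64.0 TPM), and the salvage gene APRT stood at 321 to 341 TPM. SLC17A9, ADORA3, P2RY12, P2RY13, P2RY14, P2RX2, NT5C1A and NT5C1B had no reads in any library.

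**Figure D4:**
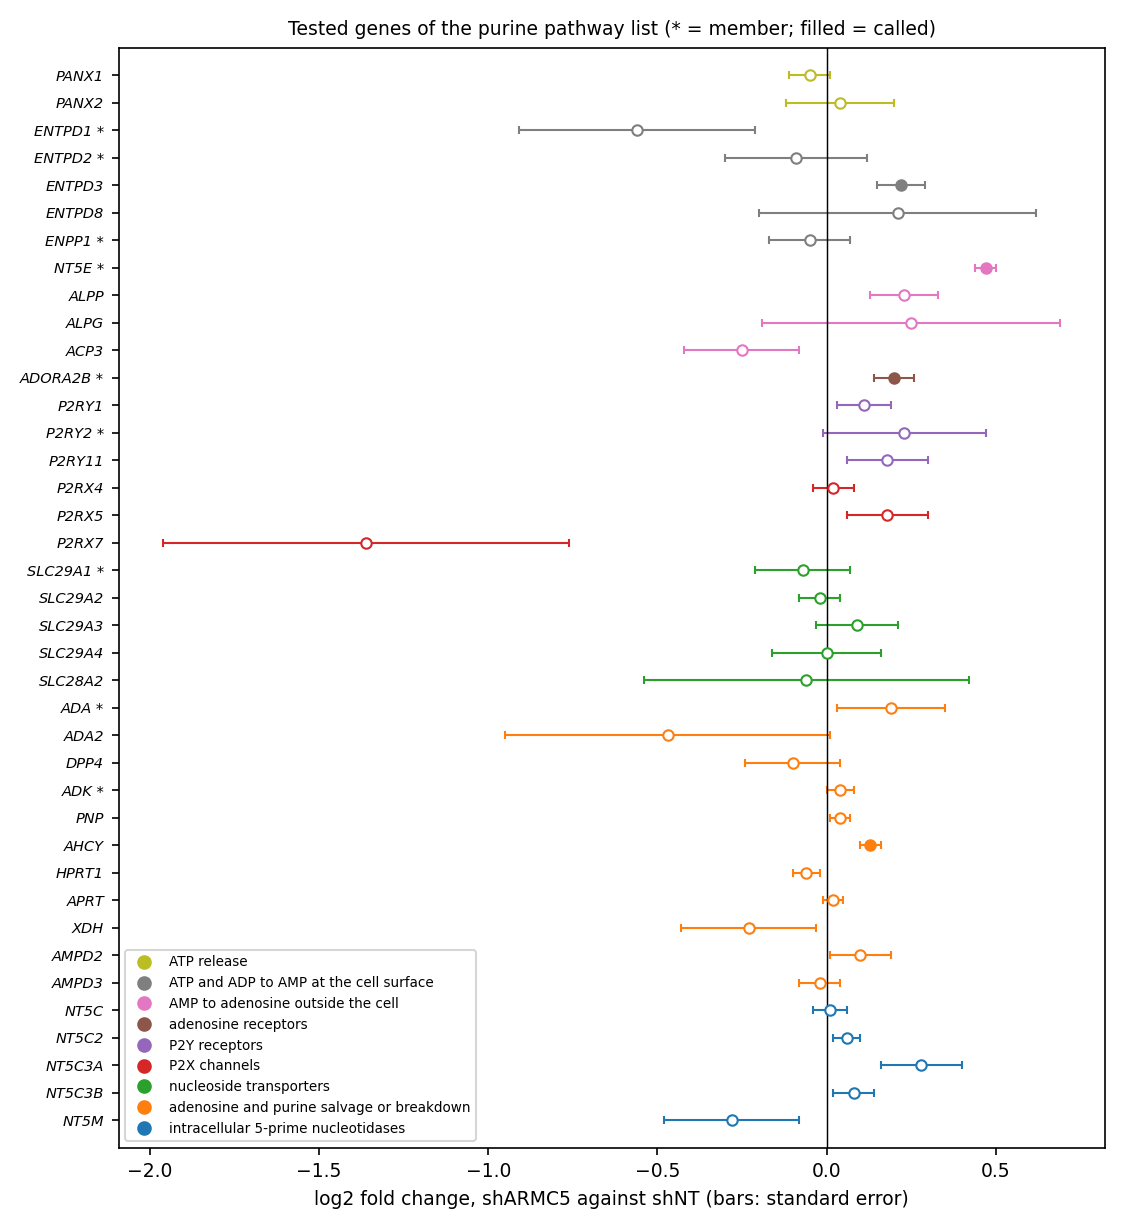
The 39 tested genes of the purine list, ordered and coloured by role. The horizontal axis is the log2 fold change of shARMC5 against shNT with its standard error (n = 3 libraries per group), filled points were called, and a star marks the 9 tested members. NT5E at 0.47 stands furthest to the right with a short bar, and the wide bars at the left belong to genes with few reads such as P2RX7 and ENTPD1.

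The genes whose profile over the 6 libraries was most like that of NT5E were sought among the 12113 tested genes that averaged 1 CPM or more, by the root mean square difference of log2 CPM after each gene's own mean was subtracted. The nearest were OLR1, a receptor for oxidized lipoprotein (difference 0.030), CAV1 and CAVIN1, which build caveolae (0.035 and 0.041), KIFC3, a minus-end kinesin (0.041), and MALL, a membrane raft protein of the MAL family (0.043). Their log2 fold changes were 0.43 for OLR1, 0.42 for CAV1, 0.41 for KIFC3, 0.41 for CAVIN1 and 0.50 for MALL, with adjusted p between 4.79e-07 and 0.000362 from edgeR. The genes were chosen for this likeness over the same 6 libraries, so their similar differences between the groups and their small adjusted p come with the choice and are given as a description.

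**Figure D5:**
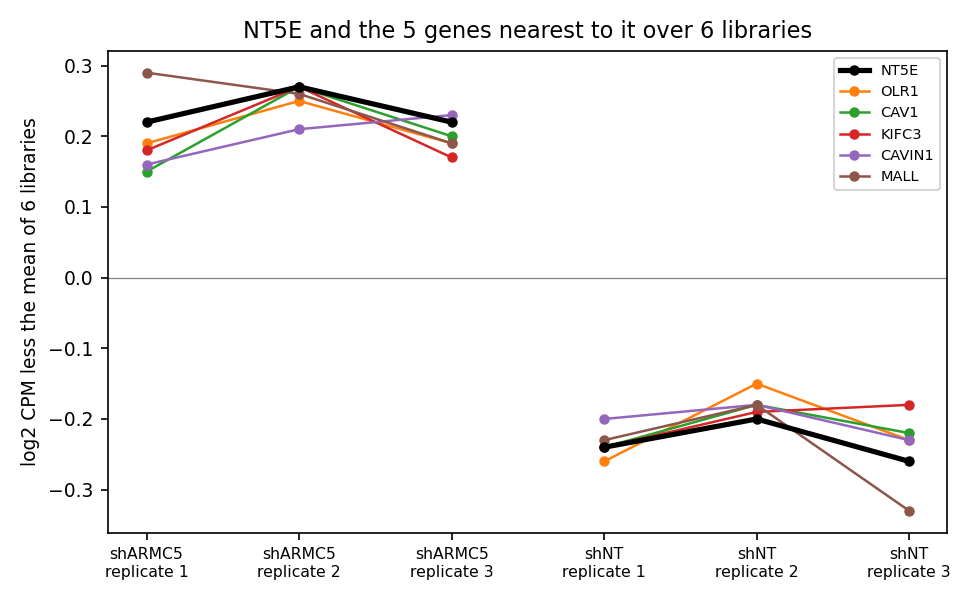
NT5E and the 5 genes nearest to it. The horizontal axis holds the 6 libraries, the vertical axis is log2 CPM less the gene's mean over them, and each line is 1 gene. All 6 genes lie between 0.15 and 0.29 in shARMC5 and between -0.33 and -0.15 in shNT libraries.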

How the data were processed

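Polyadenylated RNA of 6 libraries, 3 shARMC5 and 3 shNT, was analysed. Per the labels and the study's methods, the authors trimmed reads with cutadapt 4.2 and quantified transcripts on hg38 with salmon 1.9.0, correcting for GC content. The deposited estimated counts (reads per transcript, not normalized between libraries) and the TPM deposited by the authors were used, with the deposited effective lengths for the length offsets. The transcript set is not given in the sources used here, so identifiers were matched without version to GENCODE 44. Of 177456 transcripts 11923, holding 2.96 to 3.04% of reads, had no match and were left out. The library kit does not mark strand.

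Estimated counts were added up by gene, then rounded. A gene was tested when 3 or more libraries had 10 or more counts, with edgeR's quasi-likelihood test (version 4.0.16 in R 4.3.3; robust, TMM factors of 0.992 to 1.016, a single term for condition) and Benjamini-Hochberg adjustment over all tested genes and a threshold of 0.1. Transcripts were tested in the same way. Single values were compared by two-sided exact permutation tests over libraries. Python 3.11.15, numpy 2.4.6, pandas 2.3.3, scipy 1.17.1 and matplotlib 3.10.9 made the tables and plots. The gene test was also run on counts simulated from the means of these libraries, with 200 genes changed by 1 on the log2 scale. It recovered 92.5% of them, and 9.31% of its calls were false. Changes as small as those of the called members were not simulated. Few reads mean a large counting error.

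The members and lists were chosen with earlier results of these data known, and NT5E is a gene that the study itself labels. Genes named are ARMC5, the members, called genes of the list and those without reads, the 5 genes most like NT5E (log2 CPM with a prior count of 2) and its nearest protein-coding neighbours. ALPP, ALPG, ADORA2A, P2RY1, P2RX7, SLC29A2, NT5C3A, PKIG, the cell type markers that changed and the most abundant gene of each role were named after their values were seen. Alternatives were edgeR with size factors from DESeq2 or with library size only, edgeR with a transcript length offset, DESeq2 1.42.0 with or without such an offset, a filter of 1 count or filterByExpr, a replicate block, unmatched transcripts that lie between those of 1 gene added to it, each library left out, an adjusted p under 0.05, a log2 fold change of at least 1 in size (counts over all genes), and CPM in place of TPM. The marker KRT20 and ChIP-seq were not analysed here, and 1 further leukocyte marker is not reported here.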

Additional observations from a re-analysis of the deposited data

How the results depend on the processing

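NT5E kept its direction and its call in all 16 alternatives run for single genes, AHCY kept its call in 15 (no called gene of the purine list reaches the minimum absolute log2 fold change of 1, which was applied to counts over all genes), and of the members no gene other than NT5E and ADORA2B was called in any. ADORA2B was not called with a transcript length offset in edgeR (log2 fold change 0.19, adjusted p = 0.301), with DESeq2 (0.20, 0.145), with DESeq2 and that offset (0.19, 0.298) or at an adjusted p under 0.05 (0.20, 0.063), and with single libraries left out its value ranged from 0.16 to 0.23. The members called higher then numbered 1 instead of 2, and 1 to 2 with single libraries left out. The list genes called higher, 4 in the report, were 1 with the length offset in edgeR, 2 at an adjusted p under 0.05, 6 with a filter of at least 1 count, 6 with the replicate block and 2 to 5 with single libraries left out (2 without shARMC5 replicate 1 or 3 or shNT replicate 1 or 2). Values that changed sign were those of genes and transcripts that were not called: ENTPD2 ranged from -0.23 to 0.08 with single libraries left out, ENPP1 from -0.10 to 0.02, SLC29A1 from -0.19 to 0.02 and NT5E-202 from -0.20 to 0.81. NT5E-201 was called with library size only (0.47, adjusted p = 0.0775), and the ratio of mean ENPP1 levels was 0.966 by CPM against 0.870 by TPM. Over all genes, 610 were called higher and 454 lower. These counts were 139 and 95 with the length offset in edgeR, 300 and 268 with DESeq2 and that offset, and 12 and 22 at an absolute log2 fold change of at least 1. Called lower were 745 with genes of at least 1 count and 261 at an adjusted p under 0.05, and with single libraries left out 351 to 625 were called higher and 185 to 460 lower. Without shNT replicate 1 the counts were 351 and 185, and without shARMC5 replicate 2 they were 356 and 244, and without shNT replicate 3 they were 393 and 301. The cause of these shifts was not tested. With the replicate number as a block 972 genes were called higher and 794 lower. NT5E stayed at 0.47 and ADORA2B at 0.20 (adjusted p = 0.0338, edgeR). Deviations from the group means, taken over all tested genes, did not correlate between libraries of the same number (-0.022 to -0.006). Counting error can hide a shared deviation in such values, so whether the numbers pair the libraries cannot be told from them. Depth limits what can be said of ENTPD1, ENTPD2, P2RY2 and ADA, which had 21 to 148 reads per library, and of ADORA1, which had 3 to 7.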
